A study of Mus musculus with 6 samples.

Results

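The 8 genes described here encode transcription factors and chromatin organisers of excitatory forebrain neurons: Neurod1, Neurod2, Neurod6, Tbr1, Bcl11b, Satb1, Prox1 and Mef2c. They were taken with every probe set that the platform annotation assigns to one of them alone, which gave 24 of the 45037 probe sets that are not array controls. Neurod6 and Tbr1 had 1 probe set each, Neurod1 had 2, Neurod2 and Prox1 had 3, Bcl11b had 4, and Satb1 and Mef2c had 5. The study read RNA of the mouse hippocampus on 6 Affymetrix arrays of 1 colour. On 3 arrays the RNA came from protein-G beads with anti-myc antibody that had bound transgenic HuD, on 2 arrays it came from protein-G beads with non-immune IgG, and 1 array held the total input RNA. The strain, age and sex of the mice, the promoter of the transgene, the number of animals behind an array and the mouse line behind the IgG and input arrays are not stated in the labels. Nor do they say that the arrays came from separate preparations, so the spread behind the p-values is that among 6 arrays and may be technical.

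HuD is a neuronal RNA-binding protein of the ELAV family that binds AU- and U-rich stretches of mRNAs and is known to stabilise many of them. Pyramidal neurons of the hippocampus and granule cells of the dentate gyrus pass through a shared series of transcription factors as they form. The basic helix-loop-helix factors of the NeuroD family drive and maintain neuronal differentiation, Tbr1 and Bcl11b specify projection neuron identity, Satb1 folds and organises chromatin, Mef2c regulates activity-dependent genes and synapse number, and Prox1 is the classical factor of dentate granule cells. Satb1, Mef2c and Prox1 are also known in groups of interneurons, so the 8 genes are not markers of excitatory cells alone. The comparison of the HuD with the IgG pulldowns asks which of their mRNAs took more of the array's signal on HuD beads than on control beads, and the input gives their share before the pulldown.

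Values are signals on a linear scale in array units, and each array had been scaled to a common level by the authors, so a difference between arrays is one in share, not in amount of RNA. The HuD arrays resembled each other more than the IgG arrays did, with an SD of log2 differences across the brighter probe sets of 0.35 to 0.46 within HuD pairs and 0.60 within the IgG pair. Elavl4, which encodes HuD, had signals of 2294.1, 2010.1 and 1688.9 in the HuD pulldowns, 765.9 and 642.1 with IgG and 597.3 in the input by its brightest probe set (log2 difference of HuD to IgG 1.46 ± 0.23). The labelled tissue was checked against 18 markers of hippocampal excitatory neurons, of which 17 lay in the brighter part of the array, split at the median of mean log2 values. That split corresponds to a signal of 22.9 and includes the pulldown arrays, so it is a loose check of the tissue. The input signals of the CaMKII gene Camk2a (1355.7), the calcium buffer Calb1 (2501.5) and Wfs1 of CA1 neurons (777.9) lay at the 96.1, 98.2 and 93.0 percentile of all probe sets on that array. Fibcd1 and Spink8, also of CA1 neurons, were dimmer at 55.7 and 44.1 (the 63.9 and 61.0 percentile). The vesicular glutamate transporter Slc17a7 was at 175.5 and its relative Slc17a6 at 836.7 (the 78.5 and 93.4 percentile), and the granule cell markers Dsp, C1ql2 and Tdo2 were at 53.7, 83.1 and 22.9, between the 52.1 and the 68.8 percentile. Prox1, the granule cell factor among the members, was at 9.8 in the input by its brightest probe set (the 36.7 percentile). Probe sets differ in how brightly they read the same amount of RNA, so these ranks are rough. In bulk RNA, fewer cells of a type and less RNA per cell cannot be told apart.

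Tbr1, Bcl11b, Satb1, Mef2c and Neurod2 were higher on the HuD arrays than on the IgG arrays, each by at least 1 probe set, and Neurod1, Neurod6 and Prox1 had none past the threshold. The brightest probe sets of the 5 genes differed by 4.49-fold for Tbr1, 3.95-fold for Satb1, 2.64-fold for Bcl11b, 2.47-fold for Mef2c and 1.78-fold for Neurod2. Of the 24 probe sets 10 were called higher and 0 lower at an adjusted p of 0.05 (limma, Benjamini-Hochberg over all 45037 probe sets), against 5.73% of all probe sets called higher and 8.7% called lower. Among the 19 members in the brighter part of the array 10 were called higher, against 11.1% of all such probe sets called higher and 15.2% lower. The median log2 difference of these 19 was 1.25, and that of all such probe sets was −0.26. Counted once per gene by the brightest probe set, 5 of 8 genes were higher, against 8.35% of all 18193 genes called higher and 12.1% lower. All HuD arrays were above both IgG arrays for 14 of the 24 probe sets and below them for 2, against 16% and 28.2% of all probe sets. The members and the gene lists below were chosen with earlier results of these data known. Their shares beside those of all probe sets or genes are therefore descriptive and no test of the lists.

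**Figure D1:**
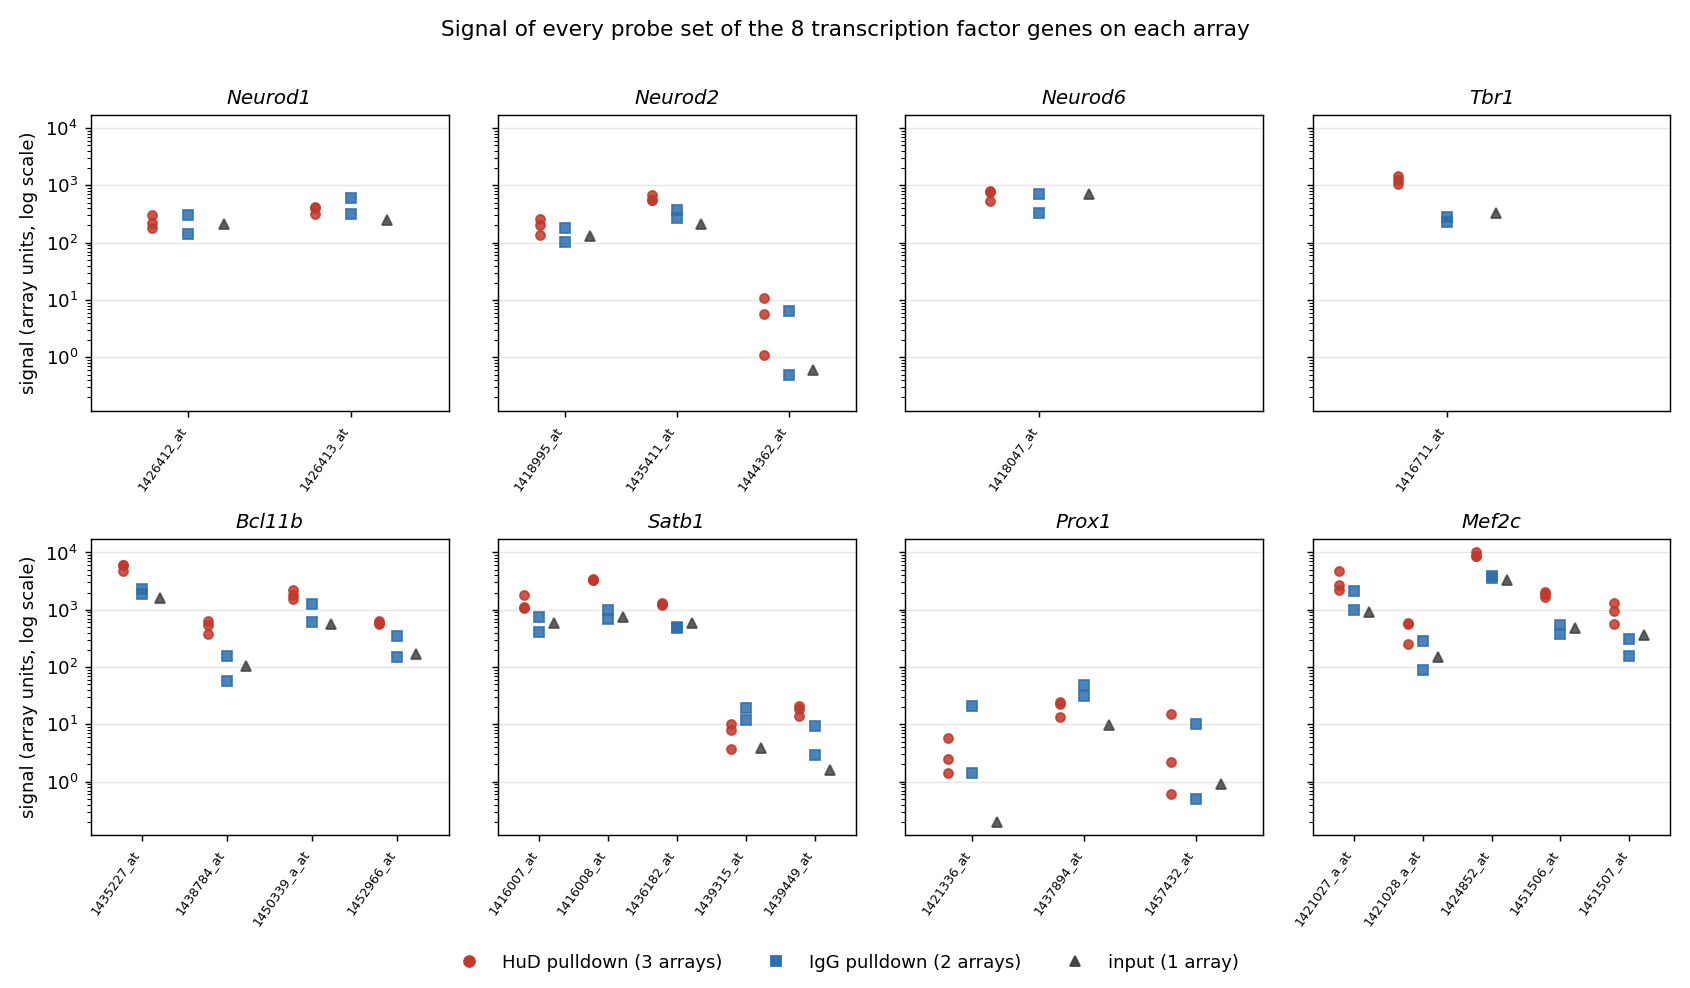
Signal of each of the 24 probe sets (x axis) on a logarithmic y axis in array units, 1 panel per gene, with 1 point per array for 3 HuD pulldowns, 2 IgG pulldowns and 1 input. The HuD points of Tbr1, and of the brightest probe sets of Satb1, Bcl11b and Mef2c, lie above all IgG and input points, whereas those of Neurod1 and Neurod6 overlap them and those of Prox1 lie below 25 units on every HuD array.

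Of the 3 NeuroD genes only Neurod2 had a called probe set, and its difference from the other two was not established by the ratios of their signals within arrays. Neurod2, which encodes a bHLH factor of maturing and mature excitatory neurons, had signals of 548.8, 674.9 and 557.4 in the HuD pulldowns, 368.9 and 274.7 with IgG and 211.4 in the input by its brightest probe set, 1435411_at. All HuD arrays were above both IgG arrays, and the log2 difference was 0.83 ± 0.23 (SE, adjusted p = 0.048), the smallest of the calls. Its second probe set, 1418995_at, gave 136.8, 202.3 and 255.3 against 179.2 and 101.9, so the groups overlapped and the difference of 0.42 ± 0.31 did not pass (adjusted p = 0.431). The remaining probe set, 1444362_at, was between 0.5 and 11 on the 6 arrays, too dim to follow. The Neurod2 call was lost when any 1 of HuD arrays 1, 2 and 3 or IgG array 2 was left out, where its log2 difference was between 0.64 and 0.88, with the pseudocount raised from 32 to 64 (0.78), and in both fits with a block (0.84 and 0.74).

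Neurod6, the bHLH gene of pyramidal neurons, had signals of 779.5, 531.9 and 790.8 with HuD, 334.0 and 717.5 with IgG and 716.5 in the input. The HuD arrays lay around the level of the input and of IgG array 2, and only IgG array 1 was clearly lower. The difference between HuD and IgG was 0.46 ± 0.34 on the log2 scale (95% interval −0.31 to 1.24, adjusted p = 0.42), and it was −0.05 without IgG array 1 and 0.98 without IgG array 2. Neurod1, the bHLH gene of differentiating granule neurons, gave 402.2, 314.7 and 415.8 with HuD, 313.6 and 605.3 with IgG and 252.9 in the input by its brighter probe set. Its 2 probe sets, which were designed on the same deposited sequence, were at −0.21 ± 0.30 and 0.13 ± 0.34 (adjusted p = 0.711 and 0.855), with intervals of −0.89 to 0.48 and −0.65 to 0.90. A p that misses the threshold does not show that Neurod1 and Neurod6 were equal on both kinds of beads, and these intervals give the differences the arrays leave possible.

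Tbr1, a T-box factor of early-born projection neurons, had the largest log2 difference between HuD and IgG of the 24 probe sets. Its signals were 1231.9, 1483.4 and 1058.4 in the HuD pulldowns, 281.7 and 226.0 with IgG and 327.8 in the input. The lowest HuD array was 3.23 times the highest of the other 3 arrays, and the log2 difference was 2.17 ± 0.24 against IgG (adjusted p = 0.00355). Tbr1 was read by a single probe set, so no second probe set bears on it. Bcl11b, also called Ctip2, is a zinc finger factor of subcortical projection neurons and of CA1 and granule cells, and had signals of 4728.0, 6121.2 and 6059.2 with HuD, 2304.7 and 1907.0 with IgG and 1584.2 in the input by 1435227_at. All HuD arrays were above both IgG arrays by each of its 4 probe sets. The log2 differences were 1.40 ± 0.25 for 1435227_at, 2.08 ± 0.36 for 1438784_at and 1.29 ± 0.32 for 1452966_at, all called, and 1.05 ± 0.33 for 1450339_a_at, which did not pass (adjusted p = 0.0702).

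Satb1, the chromatin organiser, was higher by 2 of its 5 probe sets. By 1416008_at its signals were 3293.3, 3323.2 and 3383.9 with HuD, 677.2 and 993.2 with IgG and 739.3 in the input. The HuD arrays lay close together, with the lowest 3.32 times the highest other array, a difference of 1.98 ± 0.24 on the log2 scale (adjusted p = 0.00406). By 1436182_at they were 1233.5, 1256.8 and 1336.6 with HuD, 499.2 and 482.6 with IgG and 599.8 in the input (1.32 ± 0.20, adjusted p = 0.00716). Another probe set, 1416007_at, designed on the same sequence as 1416008_at, was at 1.18 ± 0.34 and just missed the threshold (adjusted p = 0.0511), although its HuD arrays were also all above the IgG arrays. The other 2 Satb1 probe sets were at 20.9 or less on every array, below the median of the table, and neither was called.

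Mef2c, a MADS-box factor, was higher by 3 of its 5 probe sets. By 1424852_at its signals were 8733.4, 10018.1 and 8612.3 with HuD, 3818.4 and 3519.8 with IgG and 3354.6 in the input. All HuD arrays were more than 2-fold above all others by this probe set, which gave a log2 difference of 1.30 ± 0.24 (adjusted p = 0.0131). By 1451506_at the signals were 2083.7, 1648.4 and 1867.4 with HuD, 540.3 and 382.2 with IgG and 477.9 in the input, a difference of 1.96 ± 0.24 (adjusted p = 0.00415). Designed on the same sequence as these, 1451507_at was at 1.85 ± 0.39 (adjusted p = 0.0193). The pair whose suffix marks several transcripts of a gene, 1421027_a_at and 1421028_a_at, were at 1.08 ± 0.41 and 1.25 ± 0.47 and did not pass (adjusted p = 0.12 and 0.117). Their arrays scattered more: 1421027_a_at gave 2760.8, 4783.6 and 2256.6 with HuD and 2117.5 and 991.5 with IgG, and for 1421028_a_at the groups overlapped. Without HuD array 1 the call was lost for 1424852_at and 1451507_at of Mef2c, 1436182_at of Satb1 and the 3 called probe sets of Bcl11b. In that fit 1.25% of all probe sets were called higher, against 5.73% with all arrays.

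Prox1 could not be followed. Its 3 probe sets were between 0.2 and 49.7 on the 6 arrays, and its brightest, 1437894_at, stood at the 36.7 percentile of the input array with a signal of 9.8. That probe set gave 24.6, 13.5 and 22.4 with HuD and 49.7 and 30.7 with IgG, so the HuD arrays were all below the IgG arrays at signals near the array medians of 20.2 to 31.5, and its difference of −0.46 ± 0.25 did not pass (adjusted p = 0.263). The dimmer Prox1 probe sets, at −0.25 ± 0.18 and 0.01 ± 0.18, did not pass either. The table held no detection calls, so these signals cannot be called present or absent, and log2(signal + 32) compresses differences at this level.

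**Figure D2:**
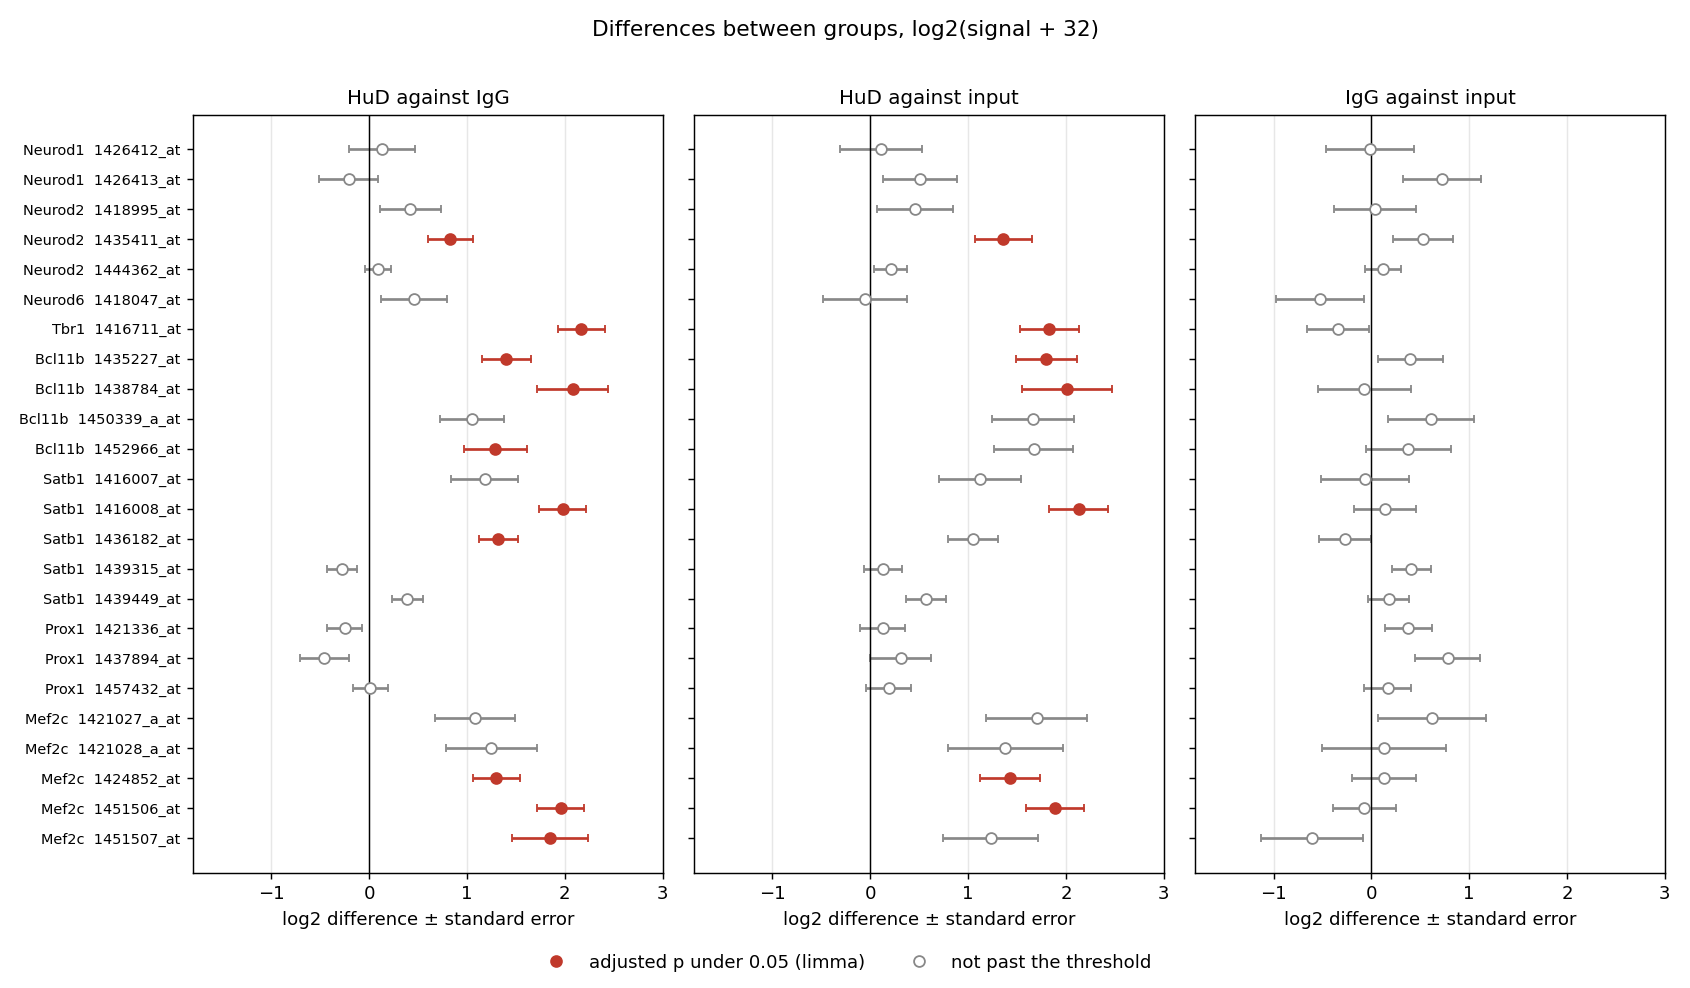
Log2 differences of the 24 probe sets (rows) for HuD against IgG, HuD against input and IgG against input, with standard errors from limma as bars and filled points where the adjusted p was under 0.05. In HuD against IgG 10 points are filled and in HuD against input 7, all to the right of 0, and in IgG against input none is filled.

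The same 5 genes were higher with HuD than in the input. This comparison shares its HuD arrays with the one above, and the spread of the single input array was taken from the pulldowns. Of the 24 probe sets 7 were called higher and 0 lower, against 2.72% of all probe sets called higher and 3.21% lower. By gene, 5 of 8 were higher, against 4.23% of all genes called higher and 4.99% lower. The log2 differences of the brightest probe sets were 2.13 ± 0.30 for Satb1, 1.83 ± 0.30 for Tbr1, 1.80 ± 0.31 for Bcl11b, 1.43 ± 0.31 for Mef2c and 1.36 ± 0.29 for Neurod2 (adjusted p between 0.0183 and 0.0371). The other 2 calls were Bcl11b by 1438784_at (2.01 ± 0.46) and Mef2c by 1451506_at (1.89 ± 0.30). Next to the threshold were 1452966_at and 1450339_a_at of Bcl11b (1.67 ± 0.40 and 1.66 ± 0.42, adjusted p = 0.0505 and 0.0568) and 1436182_at of Satb1 (1.05 ± 0.26, adjusted p = 0.0532). Neurod6 was at −0.05 ± 0.43, Neurod1 at 0.51 ± 0.38 and Prox1 at 0.31 ± 0.31 by their brightest probe sets, and none of these passed. With any 1 HuD array left out, 0 of the 24 and 0 of all 45037 probe sets were called in this comparison. The lowest value of any of the 7 called probe sets over all fitted alternatives was 1.11.

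No member differed between the IgG beads and the input past the threshold. Limma called 0 of the 24 probe sets, and 0% of all probe sets in either direction. At an unadjusted p under 0.05, 1 member was higher, Prox1 by its brightest probe set (0.78 ± 0.33), and 0 were lower, against 5.4% and 1.99% of all probe sets. For the brightest probe sets of Tbr1, Bcl11b, Satb1, Mef2c and Neurod2 the differences of IgG to the input were −0.34 ± 0.32, 0.40 ± 0.33, 0.14 ± 0.32, 0.13 ± 0.33 and 0.53 ± 0.31. Their 95% intervals reached from −1.07 for Tbr1 to 1.24 for Neurod2, so differences of a gene within its interval are not excluded by these arrays.

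The titles of the arrays carry 2 suffixes whose meaning is not stated: HuD array 1, IgG array 1 and the input end in le1, and HuD arrays 2 and 3 and IgG array 2 end in e1_le1. Within le1 the median difference between HuD and IgG over the 19 brighter members was 0.90, and within e1_le1 it was 1.66. For each of the 10 called probe sets every HuD array was above both IgG arrays. Their differences were therefore bound to be above 0 within both suffixes, which adds no support. Tbr1 was at 2.01 and 2.32, Satb1 by 1416008_at at 2.23 and 1.72, Mef2c by 1451506_at at 1.89 and 2.11, and Bcl11b by 1435227_at at 1.03 and 1.66. The brighter probe set of Neurod1 changed side, at 0.33 within le1 and −0.69 within e1_le1, as did Neurod6, at 1.15 and −0.14. The difference between the suffixes was not tested. The suffix le1 holds 1 array of each group, and e1_le1 holds 2 HuD arrays and 1 IgG array.

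**Figure D3:**
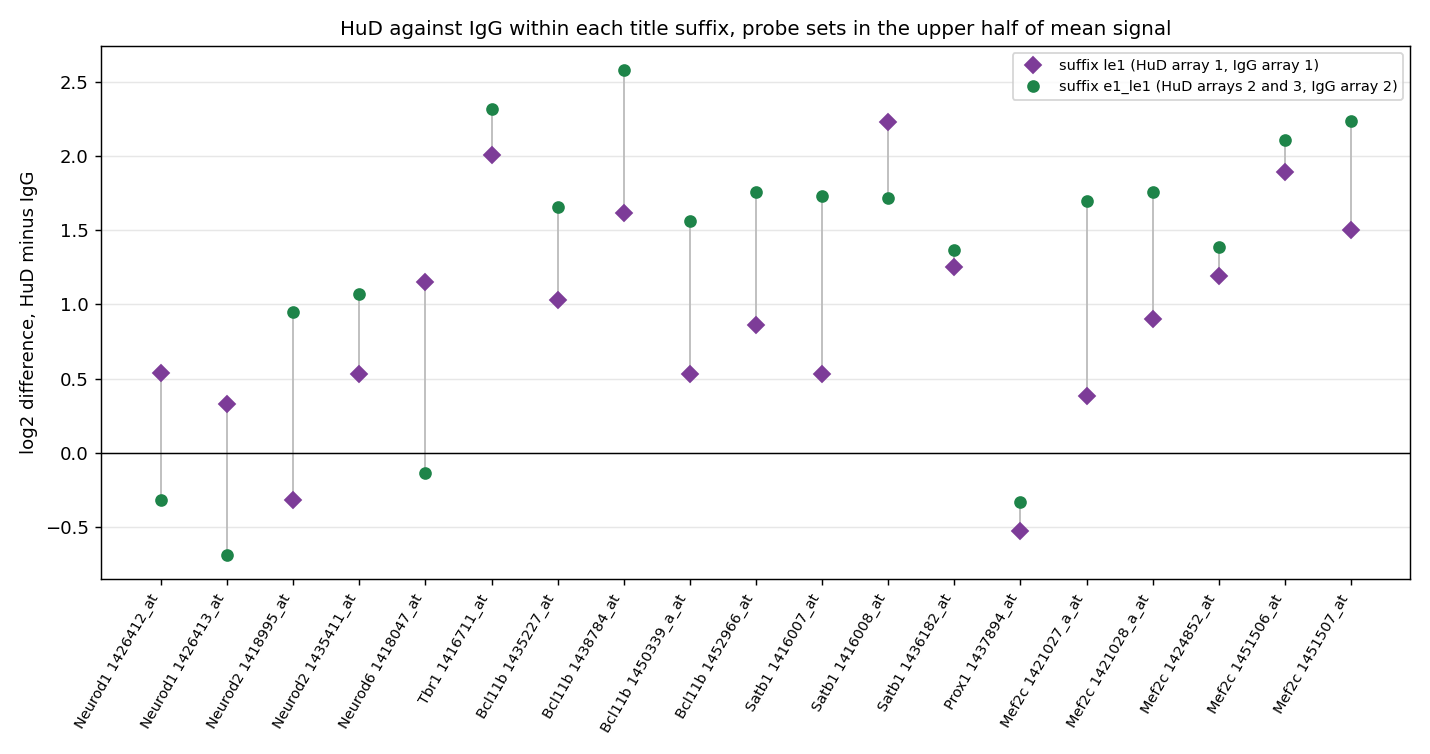
Log2 difference between HuD and IgG (y axis) for the 19 member probe sets in the brighter part of the array (x axis), computed within the title suffix le1 (1 HuD and 1 IgG array) and within e1_le1 (2 HuD arrays and 1 IgG array). All probe sets of Tbr1, Bcl11b, Satb1 and Mef2c shown lie above 0 within both, those of Neurod1, Neurod6 and the dimmer one of Neurod2 lie on both sides of 0, and that of Prox1 lies below 0.

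Differences between members were examined as ratios within an array, taken as differences of log2(signal + 32). At these signals the added 32 makes them differ a little from ratios of the signals themselves, and leaves them slightly dependent on how an array was scaled. The log2 ratio of Tbr1 to Neurod6 was 0.64, 1.43 and 0.41 on the HuD arrays, −0.22 and −1.54 on the IgG arrays and −1.06 in the input, so it was 1.70 higher with HuD and the groups did not overlap. The ratio of Satb1 to Neurod6 was 1.52 higher with HuD, also without overlap, whereas those of Bcl11b, Mef2c and Neurod2 to Neurod6 (0.94, 0.84 and 0.37 higher) overlapped because of IgG array 1. All 5 ratios to Neurod1 were higher on every HuD array, by 2.37 for Tbr1, 2.19 for Satb1, 1.61 for Bcl11b, 1.51 for Mef2c and 1.04 for Neurod2. A two-sided exact permutation test of 3 against 2 arrays cannot go below 0.2, and over the 13 ratios examined the adjusted p was at least 0.26, so none of these differences between members was established by a test.

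The near relatives of the members gave no gene call by their brightest probe sets. Of 12 paralogs 11 had a probe set, and 4 of these were in the brighter part of the array. Bcl11a, the paralog of Bcl11b, was at 0.56 ± 0.26 against IgG, and Mef2a, Mef2d and Mef2b were at 0.47 ± 0.23, 0.05 ± 0.24 and −0.11 ± 0.24. Limma called 0 of the 11, against 8.35% of all genes called higher and 12.1% lower. At an unadjusted p under 0.05, 2 were higher and 0 lower, against 9.85% and 19% of all probe sets. These were the dim genes Neurod4 (0.58 ± 0.19) and Tbx21 (0.28 ± 0.11). Other probe sets of Bcl11a did not all match this: 2 of its 7, 1457072_at and 1456632_at, were called higher at 2.40 ± 0.23 and 1.84 ± 0.24, while its brightest did not pass. The ratio of Mef2c to Mef2d was 1.25 higher with HuD, that of Mef2c to Mef2a 0.83 and that of Bcl11b to Bcl11a 0.84, all without overlap between the groups, and these are among the 13 ratios above. Each ratio used the brightest probe sets alone. The 2 called Bcl11a probe sets had larger differences than Bcl11b by 1435227_at (1.40 ± 0.25), so the direction of that ratio depends on the probe set. Neurod4, Neurog1, Neurog2, Neurog3, Eomes, Tbx21 and Prox2 had signals of 33.6 or less on every array. So did Mef2b, at 17.7 to 32.2, although it counted as in the brighter part of the array. With each array centred on its 75th percentile 4 of the 11 paralogs were called higher, a scaling that lifted all differences between HuD and IgG by 0.32 and the share of all probe sets called higher to 19.1%.

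Other transcription factors of forebrain excitatory neurons moved in both directions, with more of them higher. Of 29 such genes with a probe set 11 were higher with HuD than with IgG, 2 were lower and 16 did not pass, against 8.35% of all genes higher and 12.1% lower. All 29 were in the brighter part of the array, where 11.1% of probe sets were called higher and 15.2% lower. This list too was chosen with earlier results of these data known, so the shares only describe it. Their median log2 difference was 0.67, and that of all genes was −0.11. The largest differences were those of Sox4, a SOX factor of new neurons (2.71 ± 0.21), the POU factor Pou3f1 (2.62 ± 0.22), the LIM-only gene Lmo3 (2.22 ± 0.25) and the forkhead gene Foxp1 (2.16 ± 0.29). Foxp1 signals were 4678.2, 7255.3 and 6288.3 with HuD, 1074.6 and 1609.0 with IgG and 754.9 in the input, and 5 of its 8 probe sets were called higher. For Sox4, by contrast, 1 of 8 probe sets was called, and the other 3 in the brighter part of the array were between 0.10 and 0.92. The 2 lower genes were Zbtb20, a zinc finger factor of hippocampal pyramidal identity (−1.59 ± 0.30), and Fezf2 (−0.93 ± 0.24), which are named here after their values were seen. Against the input Fezf2 was also lower (−1.60 ± 0.31), whereas Zbtb20 was at 0.64 ± 0.38 for HuD and at 2.23 ± 0.41 for IgG, neither past the threshold. Of the 9 Zbtb20 probe sets 3 were called lower with HuD than with IgG, and the 8 brighter ones were between −1.59 and −0.73. Relative to the input these 8 were between −0.26 and 0.64 for HuD, with 0 called, and between 0.68 and 2.23 for IgG. Against the input 10 of the 29 were higher and 1 was lower, against 4.23% and 4.99% of all genes. Without HuD array 1 the count of higher genes against IgG was 4, and without HuD array 3 it was 6. In those fits 1.25% and 1.82% of all probe sets were called higher, against 5.73% with all arrays.

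Partners and regulators of the members showed no common direction. Of 24 genes 4 were higher with HuD than with IgG, 3 were lower and 17 did not pass, with a median of −0.15, against 8.35% of all genes higher, 12.1% lower and a median of −0.11. All 24 were in the brighter part of the array, where 11.1% of probe sets were called higher and 15.2% lower. Of the 3 E-protein genes, whose products pair with NeuroD factors, Tcf4 was higher (1.36 ± 0.26, adjusted p = 0.0131) by 5 of its 6 probe sets, with signals of 6285.6, 7218.0 and 7474.4 with HuD, 2303.3 and 3141.1 with IgG and 1948.2 in the input. Tcf3 (0.27 ± 0.40) and Tcf12 (0.19 ± 0.26) did not pass. The inhibitors of bHLH factors went both ways: Id3 was lower (−1.32 ± 0.27), Id4 was higher (1.07 ± 0.23), and Id2 (1.17 ± 0.42) and Id1 (−0.39 ± 0.25) did not pass. Of the SWI/SNF chromatin remodelling genes Smarca4 (−1.86 ± 0.40) and Smarcb1 (−1.24 ± 0.30) were lower, and Smarcc2 (1.06 ± 0.34) did not pass. The E-protein, Id and SWI/SNF genes outside the largest differences are named here after their values were seen. For Smarca4 the IgG signals of 1327.4 and 450.6 stood on both sides of the input at 624.0, and the HuD arrays were at 197.0, 223.6 and 159.0. Without HuD array 1 or without HuD array 3, none of the 7 calls in this list was kept. In those fits 1.25% and 1.82% of all probe sets were called higher, against 5.73% with all arrays. The shares called lower were 0.355% and 0.957%, against 8.7%.

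Markers of hippocampal excitatory neurons were mostly not called. Of the 18 markers 1 was higher with HuD than with IgG, 2 were lower and 15 did not pass, with a median of −0.31, against 8.35% of all genes higher and 12.1% lower. Cpne4 was higher (1.17 ± 0.27), Dsp (−1.28 ± 0.25) and Bok (−1.04 ± 0.26) were lower, and Rgs14 (−0.98 ± 0.30) did not pass. Against the input Dsp was at −0.09 ± 0.32 for HuD and 1.19 ± 0.33 for IgG, and Cpne4 at 0.29 ± 0.34 and −0.88 ± 0.36, so for both genes the IgG arrays lay farther from the input than the HuD arrays did. Bok was at −0.94 ± 0.33 for HuD and 0.10 ± 0.35 for IgG, and none of these passed. The summed signal of this list was 6373 to 7684 on the HuD arrays, 8989 and 9059 on the IgG arrays and 9069 in the input, while that of the 8 members was 19742 to 22481, 8148 and 8274, and 7197. The members' sum is weighted to its brightest genes. On HuD array 1 Mef2c, Bcl11b and Satb1 gave 8733.4, 4728.0 and 3293.3 of 19742. Neurod1, Neurod6 and Prox1 gave 402.2, 779.5 and 24.6. Of 10 interneuron transcription factors only Maf was called higher (0.96 ± 0.26) and 0 were lower, against 8.35% and 12.1% of all genes. That call rests on 1 of 6 Maf probe sets. Its other brighter probe sets went the other way without passing, at −0.87 ± 0.27 and −0.68 ± 0.21 (adjusted p = 0.0716 and 0.068). Sp8 (0.76 ± 0.26), Npas1 (−0.51 ± 0.24) and Sox6 (−0.50 ± 0.23) did not pass. The Maf call was lost without any 1 of HuD arrays 1, 2 and 3 or IgG array 2, and those of Cpne4, Dsp and Bok each without at least 1 array.

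**Figure D4:**
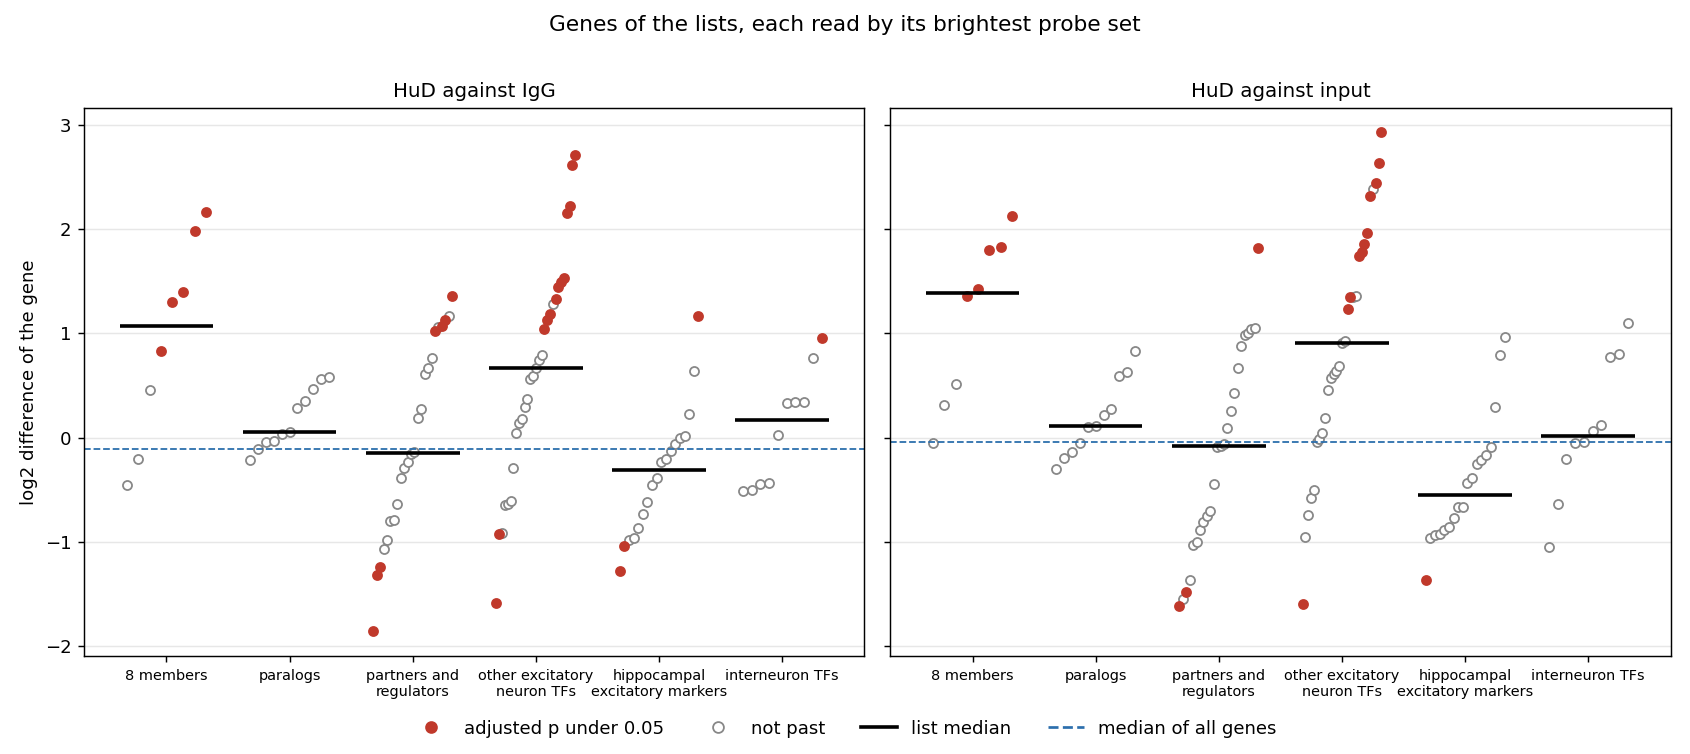
Log2 difference (y axis) of each gene of 6 lists (x axis) for HuD against IgG and HuD against input, each gene read by its brightest probe set, with filled points for an adjusted p under 0.05, a bar at the list's median and a dashed line at the median of all genes (−0.11 and −0.04). The members' median is 1.07 and 1.39, that of the other excitatory neuron transcription factors 0.67 and 0.91, and that of the hippocampal excitatory markers −0.31 and −0.55.

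Of 39 markers of the other cell types of the tissue 15 were lower with HuD than with IgG, 2 were higher and 22 did not pass, against 12.1% of all genes lower and 8.35% higher. Most of these markers were in the brighter part of the array, where 15.2% of probe sets were called lower and 11.1% higher. Of 10 interneuron markers 1 was higher and 5 were lower: the GABA transporter gene Slc32a1 was at −1.90 ± 0.21, Sst at −1.52 ± 0.34 and Gad1 at −1.43 ± 0.25, and Pvalb was higher at 1.44 ± 0.33. Of 9 oligodendrocyte markers 0 were higher and 3 lower, with Sox10 at −1.44 ± 0.22 and Mal at −0.98 ± 0.23, while Mag (−1.07 ± 0.32) and Mobp (−0.95 ± 0.29) did not pass. Of 9 astrocyte markers 1 was higher and 4 were lower, which were Aldoc (−1.61 ± 0.25), Gfap (−1.37 ± 0.25), S100b (−1.31 ± 0.33) and Aldh1l1 (−1.24 ± 0.33). Of 7 microglia markers 0 were higher and 2 lower, C1qa (−1.50 ± 0.33) and Csf1r (−1.14 ± 0.28), with C1qb (−1.11 ± 0.35) and Tyrobp (−1.10 ± 0.46) not past the threshold. Of 4 endothelial markers Cldn5 was lower (−1.25 ± 0.26), and Abcb1a (−0.68 ± 0.29), Slco1a4 (−0.50 ± 0.42) and Pecam1 (0.04 ± 0.08) did not pass. Each marker was read by its brightest probe set. For Gad1, Sox10 and Csf1r another brighter probe set did not pass (−0.18 ± 0.43, 0.01 ± 0.31 and −0.72 ± 0.26). Nor did the 2 other Gfap probe sets (−0.39 ± 0.28 and −0.50 ± 0.35). Conversely, 2 of 3 C1qb probe sets (−1.42 ± 0.34 and −1.97 ± 0.38) and 1 of 5 of Mobp (−1.12 ± 0.31) were called lower. All probe sets of Aldoc, S100b and Mal were called lower. The summed signals of these lists on the HuD arrays were 7365 to 9592 for interneurons, against 10976 and 14626 with IgG, 16941 to 20925 for oligodendrocytes, against 26425 and 33117, 14532 to 16667 for astrocytes, against 17432 and 22383, 139 to 221 for endothelial cells, against 339 and 426, and 1426 to 1968 for microglia, against 2796 and 4488. Without HuD array 1, limma called 1 interneuron marker lower and none of the other markers in these lists. In that fit 0.355% of all probe sets were called lower and 1.25% higher, against 8.7% and 5.73% with all arrays. The part of these markers in the differences of the transcription factors was not tested.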

How the data were processed

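The deposited table held 1 signal intensity per probe set and array on a linear scale. Which software made it is not given in the sources used here. After trimming 2% at each end, the arrays had the same mean signal to 3 digits, so the authors had scaled them to a common level. Of 45101 probe sets 64 array controls were left out, and 34945 of the rest had 1 gene symbol, 932 several and 9160 none. The annotation was checked by Entrez identifier against a RefSeq table of GRCm38.p6, used for names only, and 0 symbols changed.

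Group means of log2(signal + 32) were compared over all 45037 probe sets and 6 arrays with limma 3.58.1 in R 4.3.3 (eBayes with a mean-variance trend, 3 residual and 5.2 prior degrees of freedom). No filter was applied, so every member was tested. Fold changes are on this scale and understate those of dim probe sets. Errors after ± are standard errors, n was 3 HuD, 2 IgG and 1 input array, and the number of arrays limits the precision. One variance served all groups of a probe set, so errors may understate the wider spread of the IgG arrays. The steps were tested on simulated data. A gene outside the members was read by its probe set with the highest mean. The text names every member probe set, every paralog and the 4 genes of each other list with the largest difference between HuD and IgG. Members and lists were chosen with earlier results of these data known. Array numbers follow the order of deposit. Alternatives were pseudocounts of 16 and 64, other scalings, a filter, no trend, blocks and arrays left out.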

Additional observations from a re-analysis of the deposited data

How the results depend on the processing

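All 10 probe sets called higher with HuD than with IgG kept a positive difference under every alternative fitted, with 0.64 as the lowest value (0.53 within the suffix le1), and 3 were called under all of them: Tbr1 1416711_at, Satb1 1416008_at and Mef2c 1451506_at. With arrays left out or within a suffix, the sign of the 10 was fixed, because all their HuD values exceeded both IgG values. The 7 calls against the input also kept their sign, and all 7 were lost under at least 1 alternative. The count against IgG was 16 with 75th percentile centring, where 19.1% of all probe sets were higher. That scaling raised the share of higher calls among all calls from 39.7% to 76.7%. A further filter kept 1 probe set per gene above the median of such probe sets, which left out Prox1. With it 5 of 7 members were higher, against 21.5% of all 9096 genes kept. Median centring and quantile normalization moved the share of higher calls among all calls to 53.3% and 53.5%. There 14 and 10 members were higher, against 8.25% and 6.53% of all probe sets. Leaving out 1 array gave 3 to 12 members higher and 0 to 1 lower, the latter Prox1 1421336_at (−0.58) without IgG array 1. The lowest counts were 3 without HuD array 1 and 5 without HuD array 3, where 1.25% and 1.82% of all probe sets were higher. Against the input the count was 15 with 75th percentile centring, where 8.28% of all probe sets were higher (77.8% of all calls, against 45.9%). It was 11 when only the brighter probe sets were tested, of which 9.75% were higher, and 0 with any 1 HuD array left out. The input's single array and the number of HuD arrays limit that comparison.

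With the title suffix as a replicate block, 9 members were higher against IgG, where 4.94% of all probe sets were higher. Against the input 0 members were higher, and 0 of all probe sets were called. With the title number as a replicate block on 4 arrays, 12 members were higher against IgG, where 6.11% of all probe sets were higher. The deviations of the same-numbered arrays, which also share their suffix, correlated at −0.04 and 0.31 across probe sets, and those of HuD array 2 and IgG array 2, which share the suffix alone, at −0.30. Deviations from a group mean cancel within the group, so the last value is tied to the others and is no separate evidence. With 2 pairs and labels that name no shared day or animal, a pairing was not established.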
